A study of Homo sapiens with 6 samples.

Results

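Aminoacyl-tRNA synthetases are the enzymes that load each amino acid onto its tRNA. Their transcripts were followed in 6 RNA libraries, 3 that received a guide RNA against METTL1 (sgMETTL1.3) and 3 that received a control guide (sgNS). The genes were taken by symbol from a list of 42 synthetase and accessory genes, cytosolic enzymes under their older symbols without the suffix 1. A row was found for 41 of them among 26902 rows, and VARS2 was not analysed here. Of the 41, 23 act in the cytosol and 18 in mitochondria, and not every mitochondrial synthetase is on the list. All 41 were among the 12449 genes that passed the filter on low values (at least 1 in at least 3 libraries).

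All libraries came from U-937, a human line grown from a myeloid leukemia, in a clone that expresses Cas9. The labels give a KMT2A-MLLT10 fusion for all 6, although this line is usually described with another MLLT10 fusion. The label was taken as given and not checked here. Both groups were transduced with lentivirus, selected with blasticidin at 10 µg/ml and hygromycin B at 200 µg/ml and harvested 8 to 10 days after transduction, and as far as the labels say the groups differ by the guide only. The starting population was 1 Cas9 clone and sgMETTL1.3 is the only METTL1 guide, so effects of the guide other than loss of METTL1 cannot be told apart from it. Whether replicates were separate cultures is not in the labels, so a p-value here reflects how far these 6 libraries scatter, and that scatter may be technical.

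METTL1 and WDR4 together form the methyltransferase that adds N7-methylguanosine to a subset of tRNAs, the same molecules that synthetases charge. In the cytosol, a group of synthetases is held in the multi-tRNA synthetase complex by scaffold proteins such as AIMP1 and AIMP2, while the rest act as free enzymes. Mitochondria import a separate set encoded by other nuclear genes, apart from GARS and KARS, which supply both compartments. When uncharged tRNA builds up, the kinase GCN2 raises translation of the transcription factor ATF4, and many cytosolic synthetase genes are known ATF4 targets.

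ATF4 and its partners bind amino acid response elements, for which the letters TGATGNAAN were searched on both strands, with N for any base. The promoter windows ran from 250 bases before to 50 after each RefSeq start (GRCh38.p14), and 35 of the 41 genes matched a window. The element was present in windows of 7 of 18 matched cytosolic genes and 1 of 17 mitochondrial genes, against 4.45% of the 27305 genes with a window and 3.61% of the 35116 windows. The 8 matches are shown because the genes that hold one range from some that fell to some that rose as TPM, the scale explained below. Each is printed 5′ to 3′ on the strand of its gene with 10 bases on either side and the match in capitals. All read as the reverse complement except those of NARS and YARS2.
AARS, chr16:70289676-70289704, minus strand: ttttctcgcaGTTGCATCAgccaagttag
CARS, chr11:3057408-3057436, minus strand: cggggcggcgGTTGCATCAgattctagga
MARS, chr12:57488053-57488081, plus strand: gccggttccgGTTGCATCAgcgagggatt
IARS, chr9:92293693-92293721, minus strand: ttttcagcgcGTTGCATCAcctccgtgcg
TARS, chr5:33440956-33440984, plus strand: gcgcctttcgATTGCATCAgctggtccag
NARS, chr18:57621804-57621832, minus strand: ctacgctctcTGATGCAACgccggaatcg
GARS, chr7:30594834-30594862, plus strand: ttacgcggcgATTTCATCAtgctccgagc
YARS2, chr12:32756076-32756104, minus strand: tccacactgcTGATGGAAAaattaagttt

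The same 9 letters, GTTGCATCA, occurred in AARS, CARS, MARS and IARS. In AARS the match begins at position -188 from the start, farther upstream than in the other cytosolic genes, where it begins between -34 (GARS) and 15 (NARS). The wider upstream stretch of AARS, on chr16:70289557-70289756, minus strand, is given because AARS had the highest fold change of the 41 genes on both scales.
AARS upstream: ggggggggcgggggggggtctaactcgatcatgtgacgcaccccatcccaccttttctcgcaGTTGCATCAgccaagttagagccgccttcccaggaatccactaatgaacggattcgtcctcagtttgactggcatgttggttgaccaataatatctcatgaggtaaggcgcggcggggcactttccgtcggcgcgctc
The letters CACGTG, the E-box core that MYC and its partner MAX bind, read alike on both strands. They were in windows of IARS, AIMP2, CARS2, EARS2 and MARS2, which is 5 of 35 matched genes against 8.77% of all genes with a window. A match describes these letters and is not evidence that a factor binds there.

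The targeted gene, METTL1, was at 19.7, 22.0 and 20.3 in the controls and 8.28, 5.94 and 7.42 with sgMETTL1.3, and WDR4 at 28.1, 24.9 and 25.5 against 14.9, 8.68 and 10.6. The unit is TPM multiplied so that ERCC spike-ins, RNAs of known amount, sum alike in each library, so a level is per transcript length and can be compared between genes. On this scale the 12449 tested genes had a median log2 fold change of -0.32, and 49.3% of them were called lower and 6.40% higher (limma, adjusted p under 0.05). As TPM, where each library is rescaled to the same total without the spike-ins, the median was 0.015, with 25.3% called lower and 24.8% higher. Results for the synthetases are therefore given on both scales, and the marker levels below on the spike-in scale only. The log2 fold changes of METTL1 and WDR4 were -1.41 and -1.16, and -1.08 and -0.82 as TPM. No label ties the spike-ins to a number of cells. Of 8 genes fixed as markers of the line, 6 were at 1 or more in every library, while MPO reached at most 0.554 and ELANE 0.282. Their summed level was 1149 to 1254 in controls and 667 to 801 with sgMETTL1.3. LYZ, the lysozyme gene, made up most of this difference (385 to 414 against 66.5 to 80.6). PTPRC (306 to 342 against 237 to 277), CD33 (109 to 121 against 67.2 to 76.0) and CSF1R (3.91 to 4.37 against 2.20 to 2.55) were also lower without overlap. CD68 and SPI1 overlapped between the groups. Erythroid markers were at 0 in every library, as was the T cell marker CD3D, but NKG7, a gene of cytotoxic lymphocytes, ran from 303 to 338 in controls and from 156 to 239 with sgMETTL1.3. In bulk RNA, fewer cells of a type and less RNA per cell cannot be told apart. The part of these marker changes in the results was not tested.

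In the controls, cytosolic transcripts were more abundant than mitochondrial ones. Mean cytosolic levels ran from 20.6 for TARSL2, a homolog of the threonyl enzyme, to 411 for KARS, the lysyl enzyme of both compartments, with a median of 148. Mitochondrial levels ran from 7.62 for FARS2 to 195 for IARS2, with a median of 30.8. IARS2 and CARS2 (mean 146) stood above the other mitochondrial genes, of which the next was MARS2 at 42.5. The control replicates were close, with a coefficient of variation of at most 10.8% in any of the 41 genes, against up to 28.7% in the sgMETTL1.3 group.

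**Figure D1:**
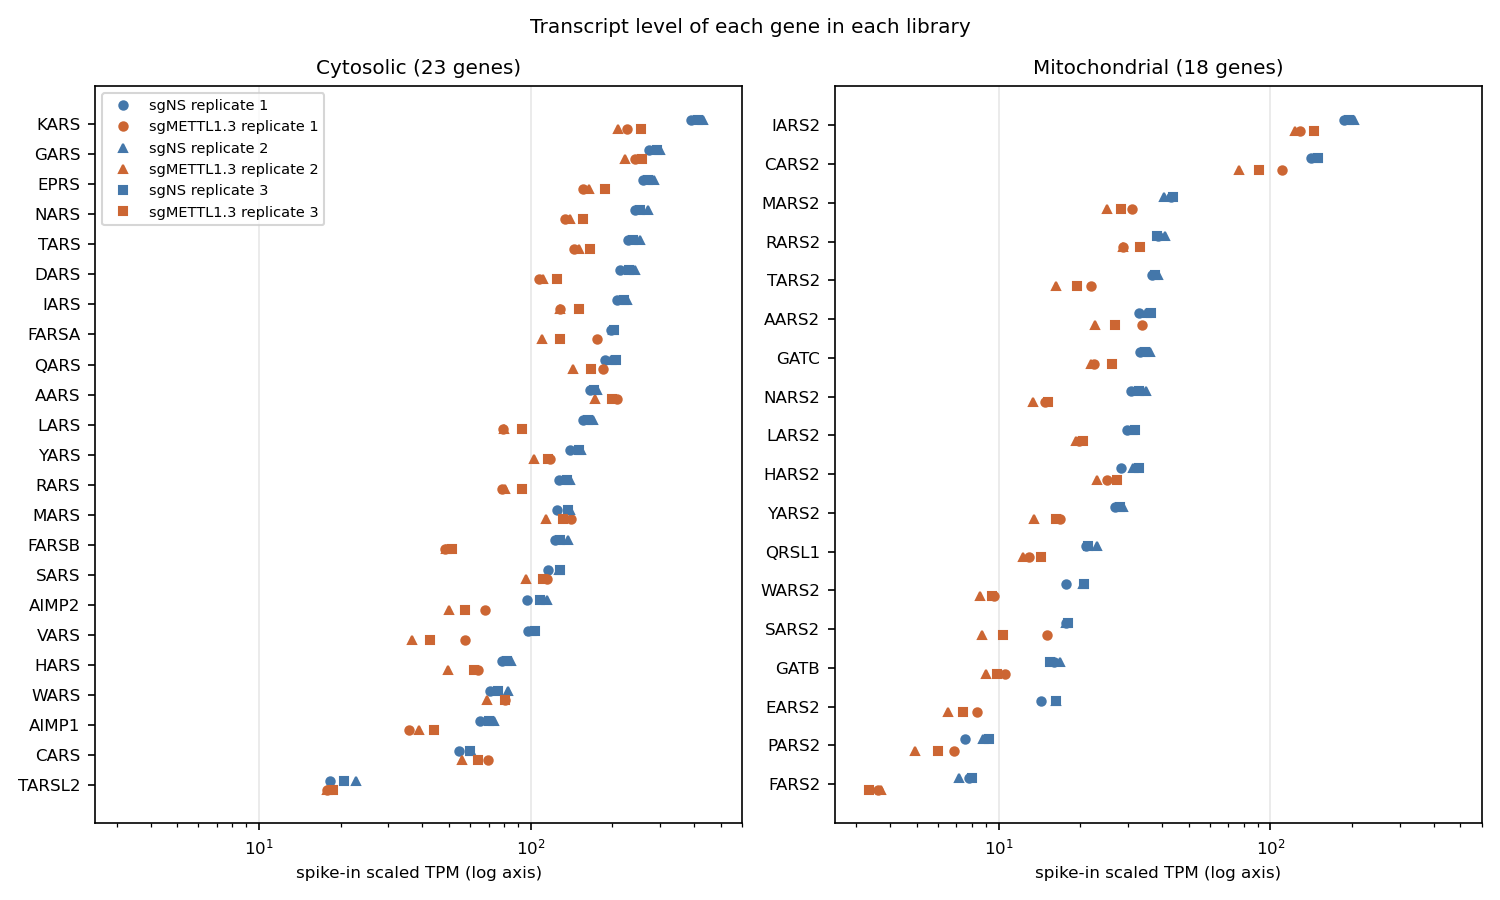
Spike-in scaled TPM (log axis) of the 23 cytosolic genes (left) and 18 mitochondrial genes (right), 1 point per library, with sgNS in blue and sgMETTL1.3 in orange and the replicate number by shape. Most orange points lie left of the blue ones, from FARSB and NARS2, whose groups are far apart, to AARS, CARS, WARS and MARS, whose groups overlap.

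On the spike-in scale, 33 of the 41 genes fell and 0 rose, where 49.3% of all tested genes fell and 6.40% rose. By compartment, 16 of 23 cytosolic genes and 17 of 18 mitochondrial genes fell, with median log2 fold changes of -0.64 and -0.65 against -0.32 for all tested genes. As TPM, 11 cytosolic genes fell and 5 rose, and 11 mitochondrial genes fell and 0 rose, where 25.3% of all genes fell and 24.8% rose. The medians were then -0.28 and -0.30. The medians of the compartments were close, while cytosolic fold changes were spread more widely, from -1.37 to 0.17 on the spike-in scale, against -1.13 to -0.28 for mitochondrial genes. Values of the groups did not overlap, with sgMETTL1.3 lower, for 35 of the 41 genes, against 53.4% of all tested genes, and with sgMETTL1.3 higher for 0, against 8.65%. As TPM, 26 were lower and 6 higher without overlap, against 32.1% and 30.9% of all genes.

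**Figure D2:**
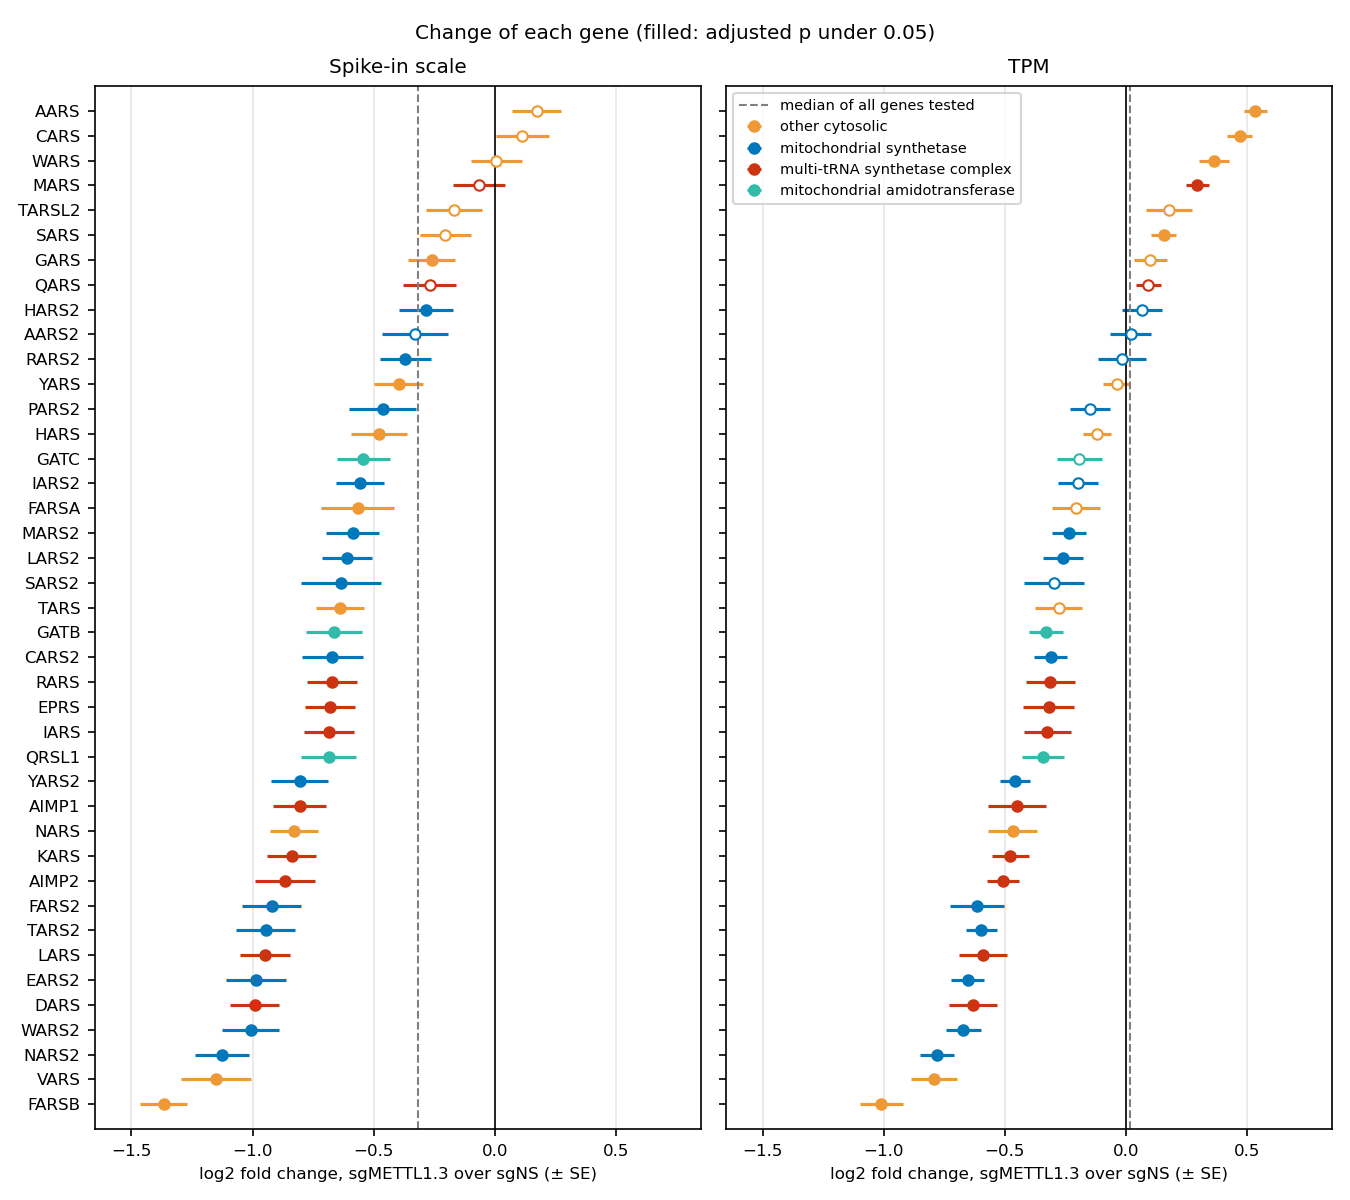
Log2 fold change of sgMETTL1.3 over sgNS with its standard error (3 libraries per group) for the 41 genes, on the spike-in scale (left) and as TPM (right), on the scale log2(value + 1). Filled points passed an adjusted p of 0.05, and the dashed line is the median of all genes tested (-0.32 and 0.015). AARS, CARS, WARS, MARS and SARS lie highest among the filled points as TPM, and FARSB lies lowest in both panels.

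The largest decrease was in FARSB, which encodes the beta subunit of the cytosolic phenylalanyl enzyme. Its levels were 123, 137 and 128 in the controls and 48.3, 48.8 and 51.5 with sgMETTL1.3. The groups were far apart and the sgMETTL1.3 libraries close to each other, at 38.3% of the control mean. The log2 fold change was -1.37 (SE 0.0972, limma adjusted p = 4.05e-07), and -1.01 as TPM (limma adjusted p = 0.000229). FARSA, the alpha subunit that pairs with it, fell less, from 198, 201 and 203 to 175, 110 and 128 (log2 fold change -0.57, limma adjusted p = 0.00911), and did not pass as TPM (-0.21). The level of FARSA per FARSB was 1.61, 1.47 and 1.58 in the controls and 3.62, 2.25 and 2.495 with sgMETTL1.3. This ratio, singled out after its values were seen and not tested, did not overlap between the groups. Replicate 1 of sgMETTL1.3 had the highest ratio, and its genes of high GC content differ from those of replicates 2 and 3, as described below.

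Beside FARSB, the valyl enzyme gene VARS had the largest decrease among free cytosolic enzymes. Its levels were 97.8, 100 and 104 in the controls and 57.2, 36.7 and 42.7 with sgMETTL1.3 (log2 fold change -1.15, SE 0.144, limma adjusted p = 5.69e-05; -0.79 as TPM). All 3 sgMETTL1.3 libraries lay well below the controls, with replicate 1 the highest. NARS, the asparaginyl enzyme, fell from 242, 270 and 252 to 134, 140 and 156 (log2 fold change -0.83, and -0.47 as TPM). TARS (-0.64), HARS (-0.48), YARS (-0.40) and GARS (-0.26), the threonyl, histidyl, tyrosyl and glycyl enzymes, also fell on the spike-in scale. None of these 4 passed as TPM, where their log2 fold changes were -0.28, -0.12, -0.038 and 0.10. TARS just missed there (limma adjusted p = 0.0503), and the groups of TARS and HARS did not overlap as TPM, with sgMETTL1.3 lower. In all, 8 of the 13 free cytosolic genes fell on the spike-in scale, where 49.3% of all genes did. As TPM, 3 fell and 4 rose, near the 25.3% and 24.8% of all genes.

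The remaining free enzymes did not pass on the spike-in scale, and all but TARSL2 passed the test for an increase as TPM. AARS, the alanyl enzyme, was at 165, 176 and 171 in the controls and 208, 172 and 199 with sgMETTL1.3. These groups overlap and the difference did not pass (log2 fold change 0.17, limma adjusted p = 0.166). As TPM the same gene was at 151, 148 and 147 against 211, 217 and 218, a rise of 0.53 on the log2 scale (limma adjusted p = 0.000251). CARS, the cysteinyl enzyme, was at 50.1, 51.0 and 51.0 TPM in the controls and 70.4, 70.7 and 70.6 with sgMETTL1.3 (log2 fold change 0.47, limma adjusted p = 0.000547; 0.11 on the spike-in scale). Both genes were thus well separated as TPM, with close replicates in each group. WARS, the tryptophanyl enzyme, which interferon gamma induces, rose as TPM (0.36). On the spike-in scale WARS was at 71.1, 82.4 and 75.9 in the controls and 80.7, 69.4 and 80.4 with sgMETTL1.3 (0.0067). SARS, the seryl enzyme, rose as TPM (0.15). On the spike-in scale SARS was at 116, 127 and 128 in the controls and 115, 95.9 and 111 with sgMETTL1.3 (-0.20). Each of these sgMETTL1.3 values was below every control, though the difference did not pass. TARSL2 passed on neither scale (-0.17, and 0.18 as TPM).

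Within the multi-tRNA synthetase complex, 8 of the 10 listed genes fell on the spike-in scale, with a median of -0.75, where 49.3% of all genes fell. As TPM, 8 fell and 1 rose (25.3% and 24.8% of all genes), and the median was -0.39. Among the listed genes the largest decrease was in DARS, the aspartyl enzyme, at 213, 241 and 231 in the controls and 108, 111 and 125 with sgMETTL1.3 (log2 fold change -0.99, SE 0.101, limma adjusted p = 4.73e-06; -0.63 as TPM). The sgMETTL1.3 mean was 50.1% of the control mean, and the groups did not overlap on either scale. LARS, the leucyl enzyme and a sensor of leucine for mTORC1, fell from 155, 170 and 163 to 78.9, 79.6 and 93.2 (-0.95, and -0.59 as TPM). KARS fell from 389, 431 and 412 to 226, 210 and 254 (-0.84, and -0.48 as TPM).

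The scaffold genes fell with the enzymes they hold. AIMP2 fell from 97.0, 115 and 109 to 68.1, 50.2 and 57.2 (log2 fold change -0.87, and -0.51 as TPM). AIMP1 fell from 65.2, 73.4 and 70.3 to 35.6, 38.7 and 44.2 (-0.81, and -0.45 as TPM). EEF1E1, the third scaffold gene, is no member of the list and was singled out after its values were seen. It was at 44.8, 41.5 and 43.0 in the controls and 17.5, 18.2 and 10.1 with sgMETTL1.3 (log2 fold change -1.48, limma adjusted p = 0.000274; -1.13 as TPM), and it overlaps a read-through gene, EEF1E1-BLOC1S5, so reads could be shared. IARS (-0.68), EPRS (-0.68), which joins the glutamyl and prolyl enzymes in a single chain, and RARS (-0.67), the arginyl enzyme, fell by nearly the same amount, and all 3 passed as TPM (-0.32, -0.32 and -0.31).

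QARS and MARS were the exceptions within the complex. QARS, the glutaminyl enzyme, was at 188, 198 and 207 in the controls and 184, 143 and 166 with sgMETTL1.3, and just missed the threshold (log2 fold change -0.27, limma adjusted p = 0.0504; 0.092 as TPM). Without sgMETTL1.3 replicate 1, the highest of its group, QARS passed (-0.35). MARS, the methionyl enzyme, was at 126, 139 and 137 in the controls and 140, 113 and 131 with sgMETTL1.3, which overlap (log2 fold change -0.065, limma adjusted p = 0.629). As TPM, MARS was at 115, 117 and 117 against 142, 143 and 144, a rise of 0.29 (limma adjusted p = 0.00247). MARS lies on chromosome 12 at 57475445 to 57517569 (GRCh38), 250902 bases from METTL1, and its 3′ end shares 982 bases with the stress factor gene DDIT3 on the other strand. DDIT3 rose, from 29.7, 32.3 and 31.6 to 61.9, 47.5 and 60.1 (log2 fold change 0.83, and 1.18 as TPM). Whether the counting used strand is not stated in any source used here, so reads in the shared stretch could count for either gene, and their part in the MARS value was not tested.

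Of the 15 mitochondrial synthetases with a row, 14 fell on the spike-in scale, all but AARS2, where 49.3% of all genes fell. As TPM, 9 fell, 0 rose and 6 did not pass, where 25.3% of all genes fell and 24.8% rose. NARS2, the asparaginyl enzyme, had the largest decrease, from 30.7, 34.9 and 32.9 to 14.9, 13.3 and 15.2 (log2 fold change -1.13, SE 0.111, limma adjusted p = 3.65e-06; -0.78 as TPM). WARS2 fell from 17.7, 20.4 and 20.6 to 9.61, 8.54 and 9.48 (-1.01, and -0.67 as TPM), while its cytosolic counterpart WARS did not pass on the spike-in scale and rose as TPM. EARS2, the glutamyl enzyme, fell from 14.4, 16.3 and 16.2 to 8.37, 6.54 and 7.38 (-0.98, and -0.65 as TPM). In these 3 genes each sgMETTL1.3 library was below every control on both scales.

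TARS2 (-0.95), FARS2 (-0.92) and YARS2 (-0.81) formed the next group and passed on both scales (-0.60, -0.62 and -0.46 as TPM). FARS2, which works as a single chain, had the lowest level of the 41 genes, at 7.76, 7.14 and 7.96 in the controls and 3.62, 3.70 and 3.34 with sgMETTL1.3. CARS2 (-0.67), LARS2 (-0.61) and MARS2 (-0.59) passed on both scales too. SARS2 (-0.63), IARS2 (-0.56), PARS2 (-0.46), RARS2 (-0.37) and HARS2 (-0.28) fell on the spike-in scale and did not pass as TPM. AARS2 was at 32.8, 34.9 and 36.4 in the controls and 33.8, 22.6 and 26.9 with sgMETTL1.3 (-0.33, limma adjusted p = 0.0566; 0.020 as TPM). Its sgMETTL1.3 replicate 1 lay among the controls and the other sgMETTL1.3 libraries below them, and without replicate 1 AARS2 passed (-0.48).

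QRSL1, GATB and GATC encode the amidotransferase that makes mitochondrial glutaminyl-tRNA from glutamyl-tRNA, in place of a direct synthetase. All 3 fell by similar amounts on the spike-in scale, where 49.3% of all tested genes fell. As TPM, 2 of them fell, where 25.3% of all genes did. QRSL1 fell from 20.9, 23.0 and 21.4 to 12.9, 12.3 and 14.3 (log2 fold change -0.69, and -0.34 as TPM). GATB fell from 16.0, 16.8 and 15.5 to 10.5, 8.96 and 9.86 (-0.67, and -0.33 as TPM). GATC fell from 33.1, 36.2 and 34.5 to 22.5, 21.8 and 26.2 (-0.54), and did not pass as TPM (-0.19). The level of QRSL1 per GATB was 1.36 ± 0.0378 in controls and 1.35 ± 0.113 with sgMETTL1.3 (SD, n = 3), and the groups overlapped. Per GATC it was 0.632, 0.637 and 0.620 in controls and 0.575, 0.566 and 0.545 with sgMETTL1.3, which did not overlap and was not tested.

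Cytosolic and mitochondrial enzymes of the same amino acid were then compared within each library, where the library factor cancels apart from the pseudocount of 1. Of 15 pairs, the log2 ratio of cytosolic to mitochondrial transcript was higher with sgMETTL1.3 without overlap in 7, lower without overlap in 3, and overlapped in 5. For single genes as TPM, 30.9% of all tested genes were higher without overlap and 32.1% lower. The share among ratios of other gene pairs was not computed, so these counts do not set the 15 pairs apart from other genes. The exact two-sided permutation test of 3 against 3 libraries cannot go below p = 0.1, which is the value for those 10 pairs, and the smallest value adjusted over the 15 pairs was 0.15. No pair could therefore pass a threshold of 0.05.

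The widest shift was in the tryptophanyl pair, where the log2 ratio of WARS to WARS2 was 1.95, 1.96 and 1.83 in the controls and 2.95, 2.88 and 2.96 with sgMETTL1.3. For cysteine, the only pair whose mitochondrial gene was the more abundant in every library, the log2 ratio of CARS to CARS2 went from a mean of -1.31 to -0.53, a difference of 0.78. The methionyl (0.52), alanyl (0.50), seryl (0.43), tyrosyl (0.41) and asparaginyl (0.30) pairs had higher ratios as well. In the leucyl (-0.34), arginyl (-0.30) and isoleucyl (-0.13) pairs the ratio was lower, so that the cytosolic member had the larger decrease. LARS, RARS and IARS belong to the multi-tRNA synthetase complex, but so does MARS, whose ratio to MARS2 was higher, and EPRS, whose ratios to EARS2 and PARS2 overlapped between the groups. Summed over each compartment, the level of cytosolic per mitochondrial transcript was 4.98, 5.12 and 5.02 in the controls and 5.14, 5.48 and 5.40 with sgMETTL1.3, a narrow difference beside the shifts of single pairs.

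**Figure D3:**
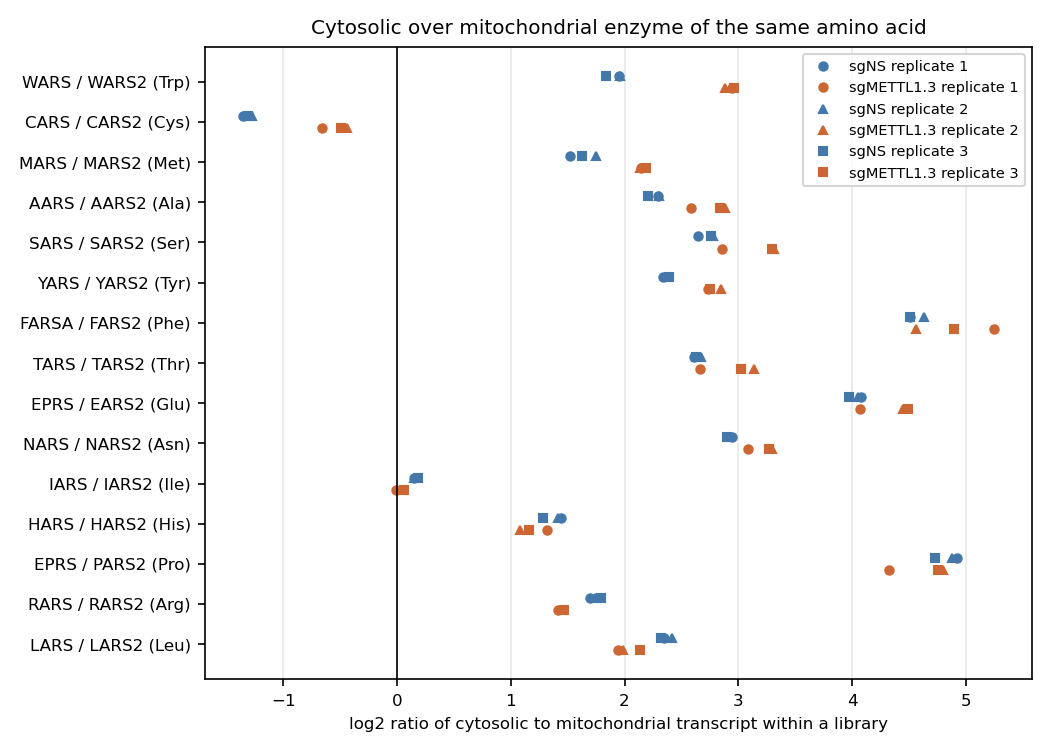
Log2 ratio of the cytosolic to the mitochondrial transcript of the same amino acid within each library, for 15 pairs sorted by the difference between group means, with sgNS in blue, sgMETTL1.3 in orange and the replicate number by shape. The orange points lie right of the blue ones without overlap in 7 pairs, from WARS over WARS2 at the top, and left of them in 3, from LARS over LARS2 at the bottom.

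HARS and HARS2, the histidyl enzymes, sit head to head on chromosome 5, with RefSeq starts 85 bases apart (140691370 and 140691455, GRCh38.p14). Their exons overlap on opposite strands in GENCODE, so reads could be shared. HARS was at 78.2, 84.9 and 81.6 in the controls and 64.1, 49.6 and 62.1 with sgMETTL1.3, and HARS2 at 28.2, 31.2 and 32.9 against 25.1, 23.0 and 27.2. The level of HARS per HARS2 was 2.66 ± 0.153 in controls and 2.33 ± 0.203 with sgMETTL1.3 (SD, n = 3), and the groups overlapped. Exons of 20 of the 41 genes overlap those of another annotated gene, among them KARS, AIMP1, AIMP2, CARS2, SARS2, EARS2 and GATC, so their values could include reads of a neighbour.

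The cytosolic synthetases known as ATF4 targets had medians nearer to that of all genes than the others. Of 12 such genes, 7 fell on the spike-in scale, not far above the 49.3% of all genes, and their median log2 fold change was -0.33, near the -0.32 of all tested genes. Of the 8 cytosolic synthetases outside that group, 7 fell and their median was -0.75. As TPM, 4 of the 12 fell while AARS, CARS, WARS, MARS and SARS rose, and the median was 0.031. Of the other 8, 5 fell as TPM, 0 rose, and the median was -0.39, where 25.3% of all genes fell and 24.8% rose. The group was not uniform, since LARS, NARS, IARS and EPRS belong to it and fell on both scales. The difference between the groups was described and not tested.

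Summed levels gave the same order within each library. The level of the 12 known targets per that of the other 8 was 1.44, 1.46 and 1.44 in the controls and 1.72, 1.89 and 1.85 with sgMETTL1.3, and the groups did not overlap. Among the 7 cytosolic genes with the element shown above, IARS and NARS fell as TPM and AARS, CARS and MARS rose, and the median was 0.10. Among the 11 matched cytosolic genes without it, the TPM calls were 6 lower and 2 higher, around a median of -0.31. With so few genes, these counts stand beside 25.3% lower and 24.8% higher for all genes, and the lower count with the element and the higher count without it are near those shares. Genes with the same 9 letters therefore lay on both sides of 0, at 0.53 for AARS and -0.32 for IARS.

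**Figure D4:**
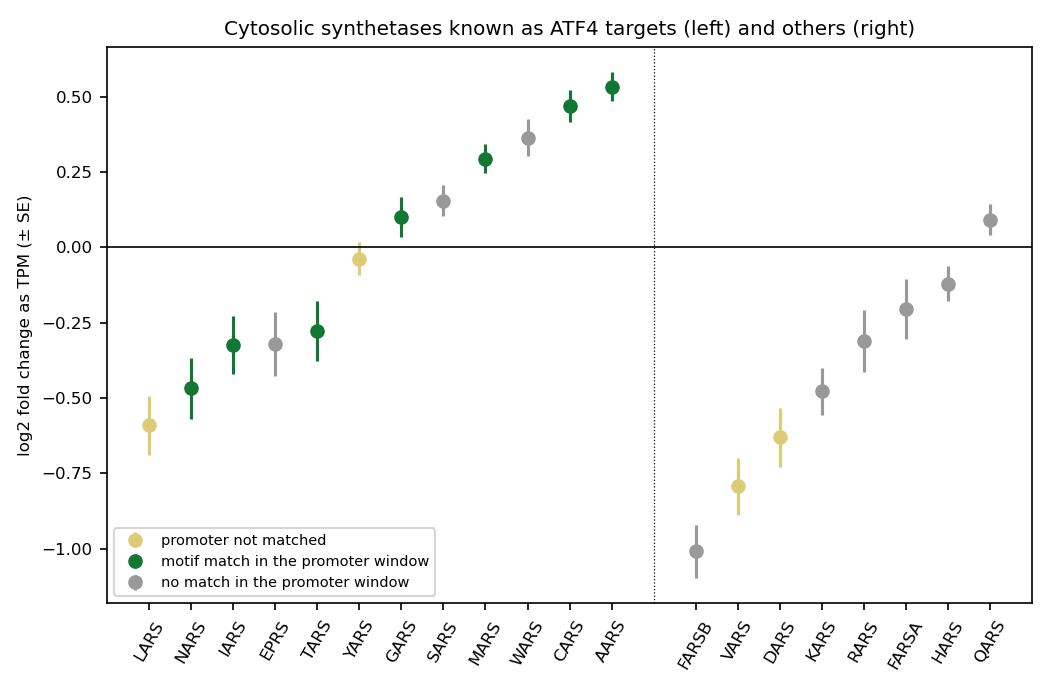
Log2 fold change as TPM with its standard error (3 libraries per group) for 12 cytosolic synthetases known as ATF4 targets (left of the dotted line) and 8 others (right), coloured by whether a promoter window holds the amino acid response element. The left group runs from LARS at -0.59 to AARS at 0.53, the right group from FARSB at -1.01 to QARS at 0.092.

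Amino acid response genes were called in both directions. Of 18 on the list, 6 fell and 4 rose on the spike-in scale (median -0.040), where 49.3% of all genes fell and 6.40% rose. As TPM, 1 fell and 8 rose (median 0.28), where 25.3% fell and 24.8% rose. NUPR1, a stress-induced chromatin protein, rose from 5.92, 8.20 and 7.24 to 23.6, 16.7 and 19.9 (log2 fold change 1.37, limma adjusted p = 9.52e-06; 1.70 as TPM). SESN2, a leucine sensor that restrains mTORC1, rose from 10.0, 11.1 and 10.4 to 28.8, 19.6 and 22.4 (1.08, and 1.42 as TPM). PSPH, the last enzyme of serine synthesis, fell (-0.57, and -0.22 as TPM). ATF4 transcript itself, singled out after its values were seen, was at 282, 306 and 306 in the controls and 314, 268 and 302 with sgMETTL1.3 (-0.015, not passing), and rose as TPM (0.35). ATF4 is controlled mainly in translation, which RNA levels do not show.

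Genes that work beside the synthetases fell in most cases. Of 20 tested partners of tRNA charging, 17 fell and 0 rose on the spike-in scale (median -0.67), where 49.3% of all genes fell and 6.40% rose. As TPM, 13 fell and 1 rose (median -0.32), where 25.3% fell and 24.8% rose. DTD1 and DTD2, which clear tRNA charged with the wrong amino acid form, fell from 78.8, 83.1 and 82.9 to 35.5, 25.4 and 29.9 and from 16.1, 16.8 and 17.7 to 6.60, 7.79 and 9.14 (log2 fold changes -1.41 and -1.02, and -1.06 and -0.69 as TPM). AARSD1, a relative of the editing domain of the alanyl enzyme, fell (-0.90, and -0.55 as TPM), and shares exons with the read-through gene PTGES3L-AARSD1. TRNT1, which adds the CCA end to which amino acids are attached, fell (-0.83, and -0.48 as TPM).

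Within the sgMETTL1.3 group, replicate 1 lay above the mean of replicates 2 and 3 in most genes of high GC content, though barely in GARS. Across the 41 genes, its deviation from their mean followed transcript GC content (Pearson 0.784, Spearman 0.768), as it did across 10929 tested genes with a GC value (Spearman 0.863). These are correlations across genes of 1 library, and genes are not independent replicates. The deviation was 0.61 on the log2 scale for SARS2, 0.55 for FARSA, 0.52 for VARS and 0.44 for AARS2, whose transcripts hold 59.3% to 62.5% GC, and -0.21 for AIMP1 at 38.6%. GARS, at 60.4% GC, departed from this, with a deviation of only 0.011 and replicate 1 (241) between replicates 2 (223) and 3 (256). Median GC content was 49.9% for the 41 genes and 50.2% for all tested genes with a value. Without replicate 1, 18 of 23 cytosolic and 18 of 18 mitochondrial genes fell, where 61.4% of all tested genes did, and 0 of the 41 rose, where 6.43% did. SARS was among those that fell (-0.26). That fit rests on 2 libraries in 1 group, whose spread is assumed to be like that of the controls, so its counts cannot be set directly against those with all 6. As TPM without replicate 1, 14 cytosolic genes fell and 8 rose, where 34.3% of all genes fell and 36.3% rose, and 13 mitochondrial genes fell and HARS2 rose (0.13).

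**Figure D5:**
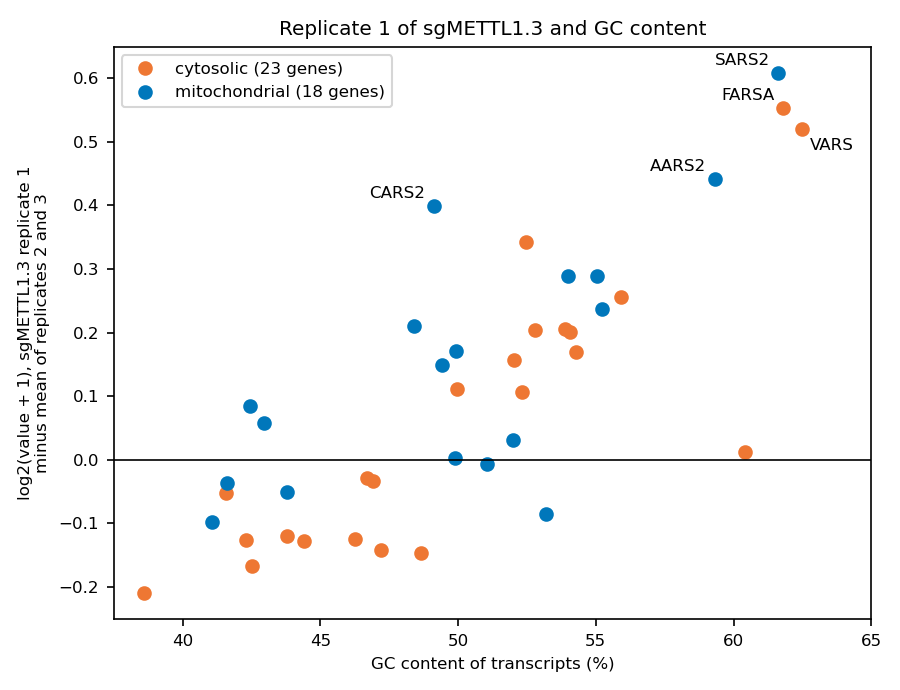
Difference between sgMETTL1.3 replicate 1 and the mean of replicates 2 and 3, on the scale log2(value + 1), against mean GC content of protein-coding transcripts, 1 point per gene for 23 cytosolic and 18 mitochondrial genes. SARS2, FARSA, VARS and AARS2, at 59.3% to 62.5% GC, lie highest on the vertical axis, GARS at 60.4% lies near 0, and AIMP1 lies lowest.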

How the data were processed

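Poly(A)-selected RNA libraries were made from 300 ng of total RNA with ERCC spike-ins, per the labels' protocols. Cutadapt, STAR and RSEM, with GRCh38 and hg38 as builds, are named by the submitters' processing notes, without version, annotation release or strand setting. The values show how the authors made the deposited signal: TPM in steps of 0.01, times 1 factor per library, which gives the 92 spike-in rows an equal sum. The factors were 1.13 to 1.23 in sgNS and 0.832 to 1.03 in sgMETTL1.3. Read depth is unknown, so no counting interval is given.

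All genes were fitted on log2(value + 1), which understates the change of low genes, with limma 3.58.1 (trend, robust, no block, R 4.3.3) and Benjamini-Hochberg adjustment over all genes tested at 0.05. The fit was also run on simulated data with noise independent between genes. Such data lack the deviation of sgMETTL1.3 replicate 1 with GC content, so they cannot show how the fit handles it. The TPM branch of the design was used, and spike-ins were left out. Alternatives were other scalings, filters, pseudocounts, no trend, leaving out each library, and a replicate block. Named genes were METTL1, WDR4, the members and the 4 smallest p of each of the lists of charging partners and amino acid response genes. Members, lists and motifs were chosen with earlier results of these data known. Gene positions came from GENCODE release 29, and promoters from RefSeq.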

Additional observations from a re-analysis of the deposited data

How the results depend on the processing

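Of the 41 genes, 22 kept direction and side of the threshold under all 15 alternatives, FARSB, VARS, NARS2 and DARS among them. As TPM, 5 cytosolic genes were higher and 11 mitochondrial genes lower, with medians of -0.28 and -0.30. With median gene ratios, 5 cytosolic genes were higher, and the medians were -0.27 and -0.30. As TPM without sgMETTL1.3 replicate 1, 8 cytosolic and 1 mitochondrial gene were higher, with medians of -0.19 and -0.29. Over all genes, 3147 were lower and 3093 higher as TPM, 3296 and 3220 with median gene ratios, 4445 higher as TPM without that replicate, and 510 higher when genes under a mean of 5 were left out, which tests fewer genes. The scale itself moves these values, since the median of all genes goes from -0.32 to 0.015 as TPM.

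Log2 fold changes that turned positive as TPM, with median gene ratios and as TPM without sgMETTL1.3 replicate 1 were, in that order, 0.10, 0.11 and 0.17 for GARS, 0.29, 0.30 and 0.30 for MARS, 0.092, 0.10 and 0.078 for QARS, 0.15, 0.16 and 0.17 for SARS, 0.065, 0.072 and 0.13 for HARS2 and 0.18, 0.18 and 0.25 for TARSL2. AARS2 turned in the first (0.020) and the second (0.027), and RARS2 in the last (0.085). With 1 library left out, WARS, at 0.0067, ran from -0.044 (without sgNS replicate 1) to 0.078 and was also below 0 without sgMETTL1.3 replicate 1 (-0.030) or 3 (-0.028). MARS ran from -0.13 (without sgMETTL1.3 replicate 1) to 0.021 (without sgMETTL1.3 replicate 2).

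Leaving out 1 library gave 15 to 18 cytosolic genes lower, 0 to 1 higher (AARS without sgMETTL1.3 replicate 2, 0.25) and 15 to 18 mitochondrial genes lower. In the same fits, of 12279 to 12337 tested genes, 4880 to 7538 were lower and 534 to 1037 higher. The calls of GARS and HARS2 were lost without any 1 control and without sgMETTL1.3 replicate 2, with log2 fold changes of -0.30 to -0.21 and -0.34 to -0.23. Those of FARSA (-0.53) and SARS2 (-0.59) were lost without sgMETTL1.3 replicate 3, of PARS2 (-0.41) without sgNS replicate 3, and of RARS2 (-0.34) without sgNS replicate 2. The number of pairs with a higher ratio and no overlap was 7 to 9 with 1 library left out, 9 as TPM, 7 with a pseudocount of 5 and 10 with 0.1. Deviations of same-numbered libraries had correlations of -0.0137, 0.00455 and -0.0385 across genes. These values show no shift that differs between genes and is shared by same-numbered libraries. A shift equal for all genes would not appear in them, and they cannot tell whether such libraries were prepared together. With the replicate block, 15 cytosolic and 16 mitochondrial genes were lower, where 5861 of 12449 tested genes were.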
